A study of Rattus norvegicus with 25 samples.

Results

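Sperm small RNA (smRNA) of morphine-exposed and saline-exposed male rats was compared after 90 days of abstinence, in 6 F0_ABS-MOR and 5 F0_ABS-SAL libraries of the 25 libraries in the series. The libraries were chosen by their column names, which end in TO_MOR and TO_SAL. No source used here says what TO and REG stand for. TO was read as abstinent and REG as nonabstinent because the numbers of columns, 6 TO_MOR, 5 TO_SAL, 7 REG_MOR and 7 REG_SAL, equal the numbers of samples labelled so. No label ties a column letter to a sample, so a library is known by its group and its letter. The males were Sprague-Dawley rats that had self-administered intravenous morphine or saline, and mature sperm was taken from the cauda epididymis by swim-up, with hypotonic washes until no blood was visible. Both groups were sampled 90 days after self-administration ended, and the nonabstinent groups F0_MOR and F0_SAL without abstinence. The question was how large a difference between morphine and saline could still be present, given the spread between libraries, in each miRNA family and each biotype of non-coding RNA (ncRNA).

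Mature sperm carries little RNA and does not transcribe its genome. Its smRNA comes from spermatogenesis and from vesicles taken up in the epididymis, and includes miRNAs, fragments of tRNA and rRNA, and other ncRNAs, some of which enter the oocyte at fertilization. A miRNA guides the Argonaute protein to transcripts that pair with its seed, bases 2 to 8 from the 5′ end, so miRNAs that share a seed share many potential targets and form a family. Here counts were summed over miRNAs whose seed could be read from the reference table, and each family was named after its most abundant member. A total of 43 miRNAs with 5.39% of the miRNA counts had no seed there and were kept singly. Some of these belong by name to a summed family, among them miR-30d-5p and miR-99a-5p. miR-200b-3p and miR-429 were kept singly as well.

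Of 562 miRNAs in the matrix, 520 were matched to a mature sequence in RefSeq on assembly GRCr8. With the miRNAs kept singly this gave 475 families. Of these families, 55 had 2 or more members, with 142 miRNAs between them. The sequences below are those of the leading families in sperm and of the miRNAs that lay farthest from equality between the groups. The seed is in capitals. The first set holds the 4 tested members of the miR-34/449 family, the most abundant miRNA family in these libraries, in which the bases outside the seed differ and the seed does not.
rno-miR-34c-5p: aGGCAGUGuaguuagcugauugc
rno-miR-34b-5p: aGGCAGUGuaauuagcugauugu
rno-miR-449a-5p: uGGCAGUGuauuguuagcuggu
rno-miR-34a-5p: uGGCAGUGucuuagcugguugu
The second set holds the leading members of the next families by abundance.
rno-miR-7a-5p: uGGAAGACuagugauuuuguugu
rno-let-7f-5p: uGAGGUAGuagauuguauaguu
rno-let-7g-5p: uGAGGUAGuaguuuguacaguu
rno-miR-148a-3p: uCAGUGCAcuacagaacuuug
rno-miR-21-5p: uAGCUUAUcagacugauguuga
The third set holds the miRNAs with the smallest unadjusted p, with miR-24-2-5p, which has the same seed as miR-24-1-5p.
rno-miR-24-1-5p: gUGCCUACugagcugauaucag
rno-miR-24-2-5p: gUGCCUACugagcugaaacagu
rno-miR-324-3p: cCACUGCCccaggugcugcugg
rno-miR-488-3p: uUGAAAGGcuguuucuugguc
rno-miR-126a-5p: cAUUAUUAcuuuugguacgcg
On GRCr8 the mature miR-34c-5p lies at chr8:60306133-60306155 on the minus strand and miR-34b-5p at chr8:60306657-60306679 on the same strand. The mature miR-24-1-5p lies at chr17:1818710-1818731 and miR-24-2-5p at chr19:40859517-40859538, both on the minus strand.

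Depth did not separate the groups. Counts on mature miRNAs ranged from 1399862 to 2728574 in F0_ABS-MOR (median 2134169) and from 1622445 to 3054222 in F0_ABS-SAL (median 2334377), and the log2 difference in totals was -0.17 (two-sided exact permutation test, p = 0.442). Counts on distinct ncRNA sets ranged from 2191101 to 4759773 and from 2503867 to 4247104 (two-sided exact permutation test, p = 0.403). No 2 of the abstinent libraries were alike within counting error (chi-square over its degrees of freedom 54.3 or more in miRNAs and 40.8 or more in ncRNAs, over 55 pairs). The spermatogenic miRNAs, 13 of 14 listed markers tested, were present in every library and summed to between 199177 and 453392 CPM (counts scaled to library size) in F0_ABS-MOR and between 287143 and 413378 CPM in F0_ABS-SAL.

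No miRNA was called as differentially expressed between morphine-exposed and saline-exposed males after abstinence. A call needed a log2 fold change beyond 0.58 in size together with an adjusted p below 0.1. Of 317 miRNAs tested with edgeR, 0 were called (0%), and 4 had an unadjusted p under 0.05 (1.26%), where 15.85 would fall below it if p-values were uniform. DESeq2, run without the filter on low counts, called 0 of 562 miRNAs and gave 5 with an unadjusted p under 0.05 (0.890%). With limma-voom 0 of 317 were called and 3 had an unadjusted p under 0.05 (0.946%). The smallest adjusted p was 0.9995 (edgeR). The log2 fold changes, morphine minus saline, had a median of -0.01, and the middle 50% lay between -0.15 and 0.08. For 0 miRNAs (0%) did the 2 groups of libraries fail to overlap. Of the 317, 147 had a higher and 170 a lower estimate with morphine, and 14 had an estimate beyond 0.58 in size.

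The width of the confidence limits varied with the level of a miRNA. Each estimate was given 95% confidence limits, which are pointwise and not corrected for the number of miRNAs. The spread behind them was estimated over all 25 libraries, not the 11 abstinent libraries alone. The median half-width of the limits was 0.60 on the log2 scale, a factor of 1.51. For 232 of 317 miRNAs (73.2%) the limits lay inside a 2-fold change in either direction, and for 86 (27.1%) inside a log2 fold change of 0.58. With only the 2 abstinent groups in the model, these were 238 (76.3%) and 71 (22.8%) of 312. Among the 14 miRNAs at 10000 CPM or more, the limits of 13 lay inside 2-fold, with a median half-width of 0.43. Among the 117 miRNAs between 10 and 100 CPM, 84 did, with a median of 0.68. Among the 55 miRNAs under 10 CPM, 10 did, with a median of 1.10, so a 2-fold difference in most of these could not be told from equality. Above 100 CPM the half-width changed little with level, at medians of 0.50, 0.46 and 0.43 for 100 to 1000, 1000 to 10000 and over 10000 CPM.

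**Figure D1:**
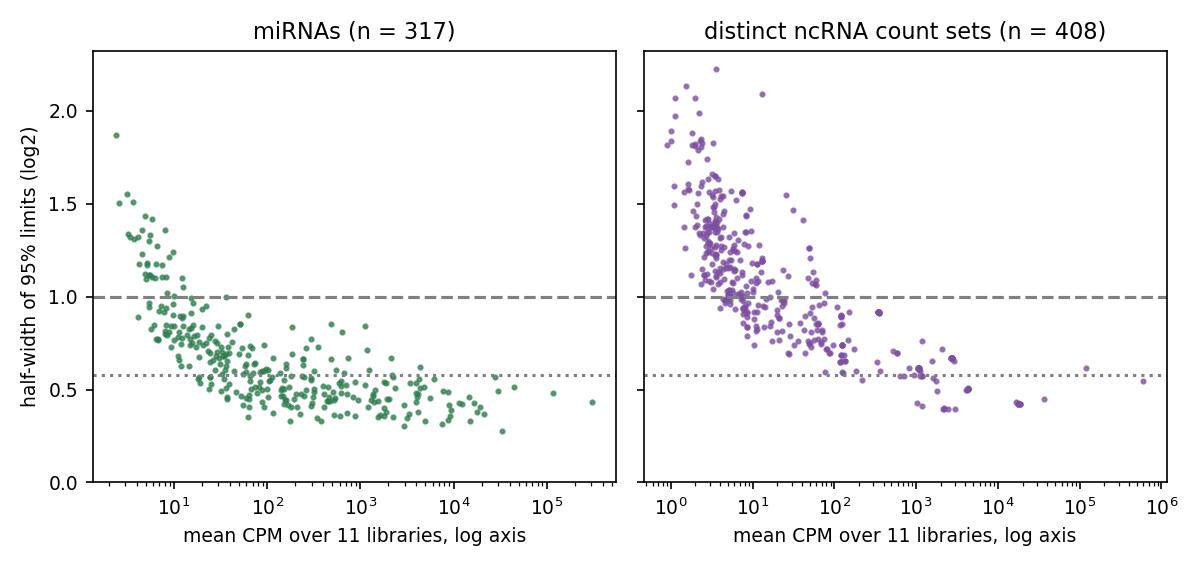
Half-width of the 95% confidence limits of the log2 fold change (y axis) against mean CPM over the 11 abstinent libraries (x axis, log scale), 1 point per miRNA (left) or per distinct ncRNA count set (right). The dotted line is at 0.58 and the dashed line at 1; half-widths fell with level to between 0.28 and 0.57 for miRNAs at 10000 CPM or more.

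The levels of the 10 most abundant miRNAs overlapped between the groups, with fold limits that ran from 0.498 to 1.58. The 10 most abundant held 63.5% of miRNA counts, and the limits of 9 of them lay inside 2-fold. miR-34c-5p, which is made in meiotic and post-meiotic germ cells, was at 154763 CPM at the lowest, 348968 at the median and 404175 at the highest in F0_ABS-MOR. In F0_ABS-SAL it was at 248042, 253735, 299521, 356029.6 and 359931 CPM. The morphine range enclosed the saline range, and the log2 fold change was 0.03 (95% limits -0.40 to 0.47).
miR-7a-5p, a miRNA best known from endocrine and neural cells, ranged from 80255 to 185399.6 CPM around a median of 110946 in F0_ABS-MOR. In F0_ABS-SAL it was at 71649, 88294, 128901, 144407 and 159695 CPM. The groups overlapped over most of their range, with a log2 fold change of -0.01 (-0.49 to 0.47).
miR-21-5p, which is expressed in many tissues including the epididymis, had the narrowest limits of all miRNAs. Its levels were 25646 CPM at the lowest, 32822 at the median and 37105 at the highest in F0_ABS-MOR, against 26633, 33128, 35185, 35644 and 36503 CPM in F0_ABS-SAL. The values lay within the same narrow range in both groups, and the log2 fold change of -0.05 (-0.33 to 0.23) corresponds to a fold between 0.80 and 1.17.

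miR-143-3p, a smooth muscle and stromal miRNA, had the widest gap among the 10 most abundant. It ranged from 15546 to 36036 CPM around a median of 22732 in F0_ABS-MOR, and was at 17381, 17526, 19099, 28526 and 80850.5 CPM in F0_ABS-SAL. The last value was that of library R, which lay above every other library, while the other 4 saline libraries lay inside the morphine range. The log2 fold change was -0.44 (-1.01 to 0.13, edgeR adjusted p = 0.9995), and 0.19 without library R. For rno-miR-143-3p it was -0.29 without library X. The remaining members of the 10 were miR-148a-3p (-0.01, -0.53 to 0.50), miR-99a-5p (0.17, -0.32 to 0.66), let-7f-5p (0.01, -0.36 to 0.38), miR-26a-5p (0.06, -0.34 to 0.47), let-7g-5p (-0.08, -0.45 to 0.30) and miR-10a-5p (-0.18, -0.61 to 0.25). Library R was also the highest saline library for miR-148a-3p, at 85792 CPM against 27079 to 38244 in the other 4, and for miR-10a-5p, at 27879 CPM.

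By family, 255 were tested and 0 called (0%) with edgeR, 3 had an unadjusted p under 0.05 (1.18%), and the smallest adjusted p was 0.996. DESeq2, run without the filter on low counts, called 0 of 475 families, with 4 at an unadjusted p under 0.05 (0.842%). With limma-voom 0 of 255 were called, with 2 at an unadjusted p under 0.05 (0.784%). For 0 families (0%) were the groups apart. The limits of 189 families (74.1%) lay inside 2-fold and those of 73 (28.6%) inside 0.58. The 12 most abundant families held 72.8% of the counts, and the limits of all 12 lay inside 2-fold, with the lowest fold limit at 0.507 and the highest at 1.54.

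**Figure D2:**
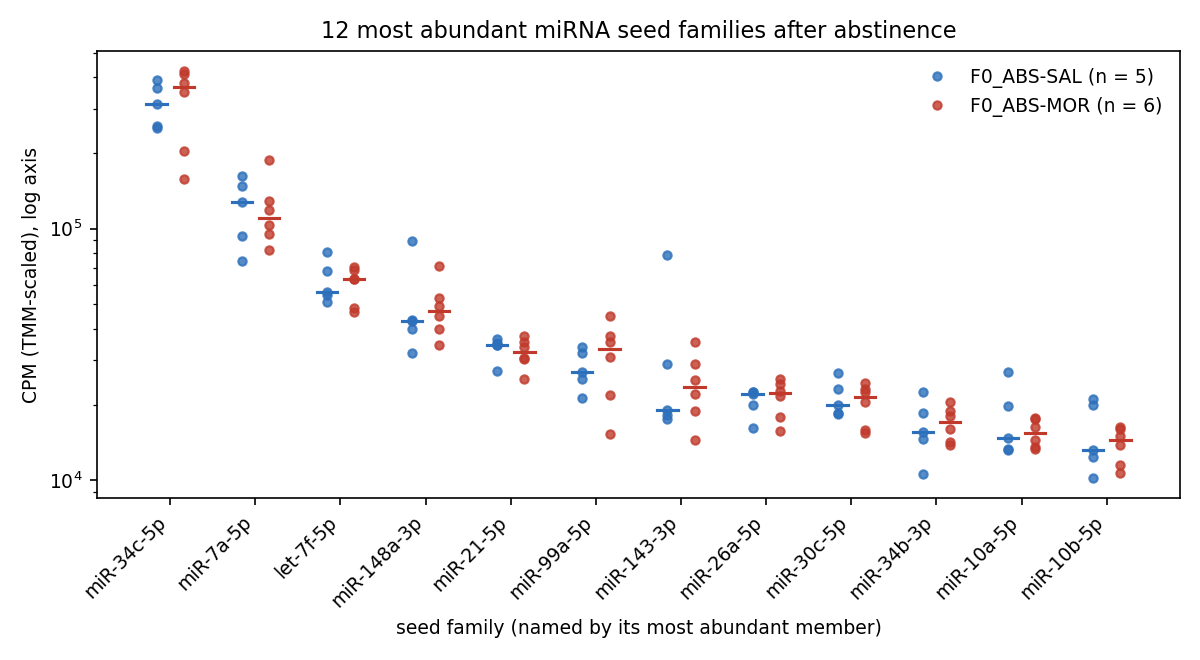
CPM of the 12 most abundant seed families (y axis, log scale) in each abstinent library, with 1 point per library and a bar at the group median, for 5 F0_ABS-SAL (blue) and 6 F0_ABS-MOR (red) libraries. The groups overlap in every family shown, and 1 saline library stands above the rest in the miR-143-3p family, at 78283 CPM.

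The miR-34/449 family was at 157062 CPM at the lowest, 364788 at the median and 423048 at the highest in F0_ABS-MOR. In F0_ABS-SAL it was at 252039, 255305, 313259, 363919.8 and 389217 CPM. Its log2 fold change was 0.03 (-0.43 to 0.49), and miR-34c-5p held 97.2% of it, so the family value is close to that of its leading member. The lesser members had estimates of 0.05 for miR-34b-5p (-0.47 to 0.58), -0.01 for miR-449a-5p (-0.50 to 0.48) and -0.38 for miR-34a-5p (-1.22 to 0.46), the last at only 10.1 to 50.2 CPM in F0_ABS-MOR.
The let-7 family, a set of differentiation-associated miRNAs, was spread more evenly over its 9 tested members, of which let-7f-5p held 34.3%. It was at 46550.1 CPM at the lowest, 63239 at the median and 70641 at the highest in F0_ABS-MOR, and at 51341, 54485, 56228, 68140 and 80725 CPM in F0_ABS-SAL. The morphine median lay between the saline values, and the log2 fold change was -0.05 (-0.38 to 0.29). Its members ranged from -0.11 to 0.08, 5 higher and 4 lower.

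The other large families also had estimates near 0. The sum of miR-30c-5p, miR-30a-5p, miR-30e-5p and miR-384-5p, the last not tested singly, had a log2 fold change of -0.07 (-0.39 to 0.25). miR-30d-5p, which was not in that sum, was at 0.07 (-0.25 to 0.38), and the miR-7 family (2 members) at -0.02 (-0.51 to 0.48). The miR-148/152 family (3 members) was at -0.02 (-0.48 to 0.44). The miR-17/20/93/106 family, from clusters that promote proliferation, was lower with morphine in 5 of 5 members, at -0.18 (-0.68 to 0.32), and its limits include no difference. The miR-29 family, which targets collagens and other matrix genes, was higher in 3 of 3 members, at 0.04 (-0.34 to 0.42). Members of a family were counted in the same libraries and are not independent of each other.

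**Figure D3:**
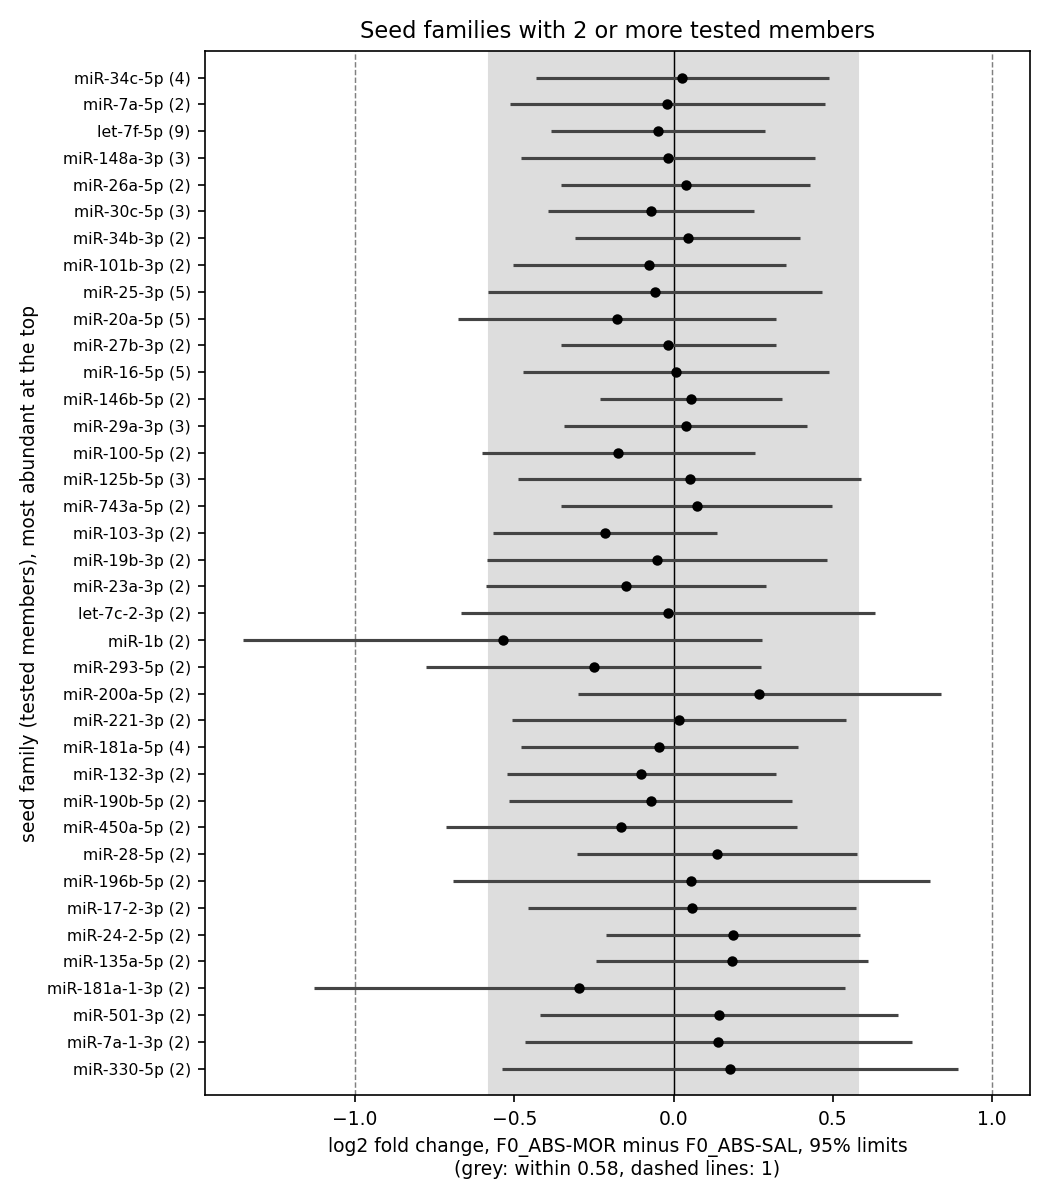
Log2 fold change, F0_ABS-MOR minus F0_ABS-SAL (x axis), with 95% confidence limits for the 38 families with 2 or more tested members, ordered by abundance; numbers in brackets are tested members. The limits cover 0 in every family, and those of 36 lie between the dashed lines at a 2-fold change.

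Of the 38 families with 2 or more tested members, 18 had higher and 20 lower estimates, 0 had an unadjusted p under 0.05, and the limits of 36 lay inside 2-fold and of 20 inside 0.58. Their estimates ranged from -0.54 to 0.27 with a median of -0.02. The 2 families with limits past 2-fold were the miR-1b family, 98.2% of it miR-1b, which shares a seed with the muscle miRNA miR-1-3p (-0.54, -1.35 to 0.28), and the miR-181a-1-3p family (-0.30, -1.13 to 0.54), at a mean of 28.7 CPM. The 217 families with a single tested miRNA had wider limits, with a median half-width of 0.63 against 0.46, and 153 of them lay inside 2-fold.

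The 4 miRNAs with an unadjusted p under 0.05 were all at low or moderate levels, and none passed the adjustment. miR-24-1-5p, the passenger strand of the miR-24-1 hairpin, was at 5.47 CPM at the lowest, 13.9 at the median and 17.8 at the highest in F0_ABS-MOR. In F0_ABS-SAL it was at 2.63, 4.01, 6.35, 7.35 and 8.25 CPM. The 2 lowest morphine libraries lay inside the saline range and the other 4 above it. These levels rested on 13 to 34 counts per morphine library and 8 to 23 per saline library. The log2 fold change was 1.08 ± 0.36 (SE), with limits from 0.35 to 1.81 (edgeR quasi-likelihood adjusted p = 0.9995; exact permutation test of log2 CPM, p = 0.0346). miR-24-2-5p, which has the same seed and was at 71.5 to 116 CPM in F0_ABS-MOR and 67.7 to 101 CPM in F0_ABS-SAL, was at 0.11 (-0.32 to 0.54), and the 2 together at 0.19 (-0.21 to 0.58).
miR-324-3p was at 3.48 CPM at the lowest, 8.14 at the median and 18.4 at the highest in F0_ABS-MOR. In F0_ABS-SAL it was at 12.2, 13.2, 14, 20.3 and 34.2 CPM. The morphine libraries Q, S, X and D lay below all saline libraries and the other 2 inside their range, with a log2 fold change of -0.96 ± 0.39 (SE, limits -1.75 to -0.17, edgeR adjusted p = 0.9995). Without the saline library L it was -0.62. miR-488-3p, encoded in an intron of a neural gene, was at 5.48, 8.19 and 11.8 CPM at the lowest, median and highest in F0_ABS-MOR, and at 3.17, 9.75, 15.3, 18.1 and 41.1 CPM in F0_ABS-SAL. The saline libraries spread more widely and held both the lowest and the highest value, and the log2 fold change was -1.07 ± 0.44 (SE, limits -1.96 to -0.18, edgeR adjusted p = 0.9995). Without the saline library R it was -0.53.

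miR-126a-5p and miR-126a-3p, the 2 arms of an endothelial miRNA, had lower estimates with morphine. miR-126a-5p was at 49.2, 82.9 and 136 CPM at the lowest, median and highest in F0_ABS-MOR, and at 74.6, 103, 129, 132 and 210.3 CPM in F0_ABS-SAL, with a log2 fold change of -0.58 (limits -1.13 to -0.02, edgeR adjusted p = 0.9995). For miR-126a-3p the values were 987, 1084 and 1321 CPM against 633, 1246, 1287, 1656 and 2611 CPM, with a log2 fold change of -0.40 (-0.85 to 0.04). In both arms library E was the lowest of the saline libraries and library L the highest. Without library L the log2 fold change of rno-miR-126a-5p was -0.34 and that of rno-miR-126a-3p -0.098. The 2 arms together, which are the whole endothelial list, summed to 1036 to 1457 CPM in F0_ABS-MOR and 708 to 2821 CPM in F0_ABS-SAL.

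**Figure D4:**
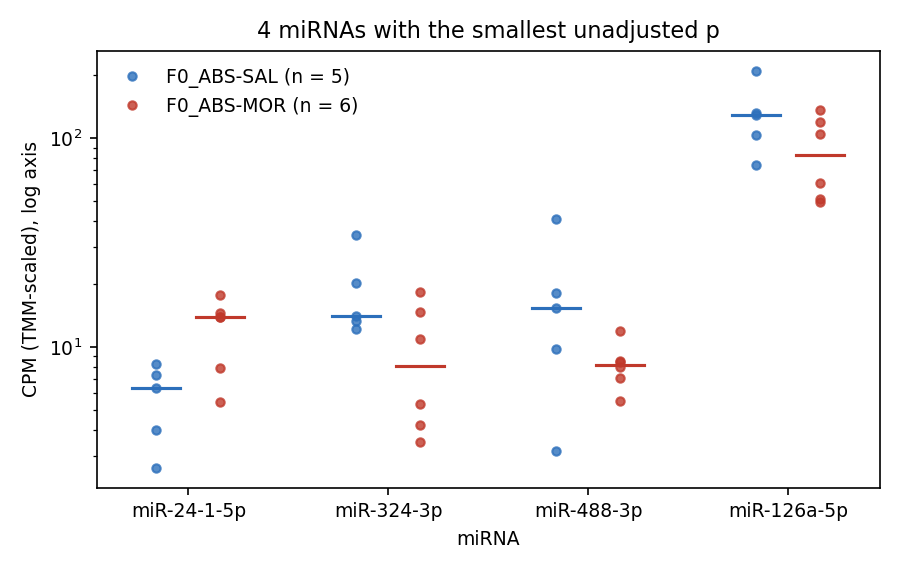
CPM (y axis, log scale) of the 4 miRNAs with the smallest unadjusted p in each abstinent library, with a bar at the group median, for F0_ABS-SAL (blue, n = 5) and F0_ABS-MOR (red, n = 6). The groups overlap for each miRNA, and miR-24-1-5p, miR-324-3p and miR-488-3p lie near 10 CPM.

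The next 6 miRNAs by p included miR-128-3p, a neuron-enriched miRNA. It was at 554, 1053 and 2737 CPM at the lowest, median and highest in F0_ABS-MOR and at 613, 735, 862, 957 and 1218 CPM in F0_ABS-SAL. The morphine libraries Q, S and X lay above all saline libraries, and the others lay between 554 and 703 CPM. The log2 fold change of rno-miR-128-3p was 0.69 (-0.02 to 1.40), and fell to 0.41 without library Q and 0.44 without library S. miR-107-3p, at 46.3, 56.8 and 64.2 CPM against 56.6, 62.7, 71, 77.2 and 78.9 CPM, lay below the saline mean in 6 of 6 morphine libraries, at -0.30 (-0.65 to 0.05). miR-144-3p, an erythroid miRNA, was at -0.48 (-1.08 to 0.12), and miR-292-3p, an embryonic miRNA with 0 counts in 3 of the morphine libraries and 1 of the saline libraries, at -1.44 (-3.31 to 0.43). Without 1 saline library these were -0.29 for miR-144-3p (library Y) and -0.87 for miR-292-3p (library E). The 48 transcripts named by the rule were also compared by a two-sided exact permutation test on log2 CPM. It gave 2 with an unadjusted p under 0.05, miR-24-1-5p and miR-107-3p (exact permutation test, p = 0.0346 for each). The smallest p that the exact permutation test allows for 6 against 5 libraries is 0.00433. Both miRNAs had been named for being among the 10 with the smallest edgeR p in the same comparison. Their exact p therefore retests values chosen as extreme and is not independent evidence of a difference.

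Lists of miRNAs that mark other cells were set beside these values, and their part in the result was not tested. The estimates were lower with morphine for 3 of 3 tested erythroid markers (median -0.35) and 2 of 2 endothelial markers (-0.49). They were also lower for 5 of 5 tested muscle and stromal markers (-0.57). Over all miRNAs the median was -0.01, and 170 of 317 were lower. Members of a list were counted in the same libraries and are not independent of each other. The 3 erythroid markers lie close together on chromosome 10, and the 2 endothelial markers are arms of the same hairpin. The muscle list summed to 15844 to 36456 CPM in F0_ABS-MOR and 17732 to 81691 CPM in F0_ABS-SAL, where library R was the highest and the other 4 reached 28975. Nearly all of it was miR-143-3p. miR-206-3p and miR-133b-3p, markers of skeletal muscle, were too low to test and had at most 7 counts in any library. Other members of the list varied. miR-499-5p had 306 to 1039 counts and miR-145-5p 122 to 1162, while miR-1-3p and miR-133a-3p had at most 64. The erythroid list summed to 308 to 1292 CPM and 655 to 1256 CPM. Estimates were higher for 5 of 6 leukocyte markers (median 0.17, sums of 2001 to 3056 CPM against 1939 to 2698 CPM). They were higher for 4 of 7 epithelial markers and 2 of 4 neural markers. None of the lists held a called miRNA, and 1 marker in all, miR-126a-5p, had an unadjusted p under 0.05.

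Some miRNAs that the study named in other comparisons of these libraries were followed here. miR-150-5p, a lymphocyte miRNA, was at 101 CPM at the lowest, 154 at the median and 167 at the highest in F0_ABS-MOR and at 82.2, 99.4, 121, 144 and 173 CPM in F0_ABS-SAL. The saline range enclosed the morphine range, and the log2 fold change was 0.24 (-0.35 to 0.82). It was 0.12 without the saline library Y and 0.40 without the saline library L. The study called miR-150-5p between the nonabstinent groups with DESeq2. In those groups the same edgeR fit gave miR-150-5p a log2 fold change of 0.92. It called 0 of 317 miRNAs there, and the family fit called 1 of 255 families. The difference between the timepoints for miR-150-5p, abstinent minus nonabstinent, was -0.68 (edgeR interaction, adjusted p = 0.953). miR-547-3p was at 0.08 (-0.38 to 0.54). miR-186-5p, the reference of the study's qPCR, was at -0.10 (-0.43 to 0.23), one of the 5 narrowest pairs of limits. rno-miR-200a-5p was at 0.27 (-0.33 to 0.87) and rno-miR-27a-3p at 0.22 (-0.26 to 0.69). The snoRNA transcript ENSRNOT00000083185.1, followed because it had the smallest p of all ncRNA sets in the nonabstinent comparison, cannot be tied to a named snoRNA from these files. It was at 8.55, 17 and 30.3 CPM against 12.7, 14.3, 21.8, 27.2 and 31.1 CPM, with a log2 fold change of -0.17 (-1.07 to 0.74).

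Published sets of miRNAs were described by their counts. Among 7 tested of 8 miRNAs raised in sperm of stressed sires, among them miR-30a-5p, miR-30c-5p and miR-375-3p, 4 had higher and 3 lower estimates, with a median of 0.02 and a range from -0.18 to 0.26. The limits of 6 lay inside 2-fold. Among 18 miRNAs with reported action on opioid receptor signalling, which include the let-7 family, miR-23b-3p and miR-107-3p, 7 were higher and 11 lower, with a median of -0.07 and a range from -0.36 to 0.35. The limits of 16 lay inside 2-fold, and 0 had an unadjusted p under 0.05. The median over all 317 miRNAs was -0.01.

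Among ncRNAs, transcripts with identical counts in every library were collapsed, which reduced 3804 rows to 2086 distinct count sets, 309 of them of 2 or more rows. Of 409 sets tested with edgeR, 0 were called (0%), and 1 had an unadjusted p under 0.05 (0.244%), where 20.45 would if p-values were uniform. DESeq2, run without the filter on low counts, called 0 of 2086 sets, with 6 at an unadjusted p under 0.05 (0.288%). With limma-voom 0 of 409 were called, with 11 at an unadjusted p under 0.05 (2.69%). For 0 sets (0%) were the groups apart. The limits were wider than for miRNAs, with a median half-width of 1.03, a factor of 2.05. The limits of 123 sets (30.1%) lay inside 2-fold and those of 16 inside 0.58. With only the 2 abstinent groups in the model, these were 142 (37.3%) and 16 of 381. The common dispersion was 0.274, against 0.111 for miRNAs. One lincRNA set with counts in a single abstinent library, 2 in all, was listed at 0 in all saline libraries and was given no fold change.

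The ncRNA identifiers are not paired with gene names in the files, and 0 of them matched the RefSeq table. The lincRNA ENSRNOT00000077355.1 had the smallest p. It was at 2.14, 3.33 and 4.93 CPM at the lowest, median and highest in F0_ABS-MOR and at 2.42, 4.66, 6.79, 8.38 and 14.8 CPM in F0_ABS-SAL, with a log2 fold change of -1.08 (-2.06 to -0.10; edgeR adjusted p = 1.00; exact permutation p = 0.0649). Without the saline library L it was -0.68. All morphine libraries lay below 3 of the 5 saline libraries. ENSRNOT00000069597.1, a nuclear-encoded rRNA, had the highest estimate among the 5 smallest p, at 1.24 (-0.14 to 2.61) on 15 counts or fewer per library.
The most abundant snRNA set, 11 rows with identical counts led by ENSRNOT00000077425.1, was at 18509.8, 33586 and 38558 CPM against 26255, 39037, 40273, 45329 and 57970.3 CPM. The saline libraries other than K lay above every morphine library, and the log2 fold change was -0.40 (-0.85 to 0.05), or -0.26 without library Y. The most abundant tested sets of 8 biotypes had estimates from -0.40 to 0.34, 2 higher and 6 lower, with half-widths of 0.45 to 1.02.

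The biotypes were compared by their share of all ncRNA counts in a library, with exact permutation limits over the 6 and 5 libraries. Mitochondrial rRNA, the transcripts of the 2 ribosomal genes of the mitochondrial genome, took the largest share, at 58.3% to 77.5% (median 70.6%) in F0_ABS-MOR and 54.9% to 76.0% (median 72.1%) in F0_ABS-SAL. The log2 difference was 0.02 (-0.20 to 0.24, two-sided exact permutation p = 0.823), the narrowest of the biotypes. This places the fold of the share, not of the level of each RNA, between 0.868 and 1.18. A share this large has little room to rise. In the edgeR fit the 2 mitochondrial rRNA sets had estimates of -0.13 and 0.26, with half-widths of 0.55 to 0.62. The limits of both lay inside 2-fold and those of 0 inside 0.58. snRNA, the RNA of the spliceosome, held 13.6% to 26.0% against 14.3% to 31.5%, with a log2 difference of -0.10 (-0.64 to 0.40). Within snRNA, 29 of 37 tested sets had lower estimates, with a median of -0.17, many of them near copies of the same RNA that share reads.

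**Figure D5:**
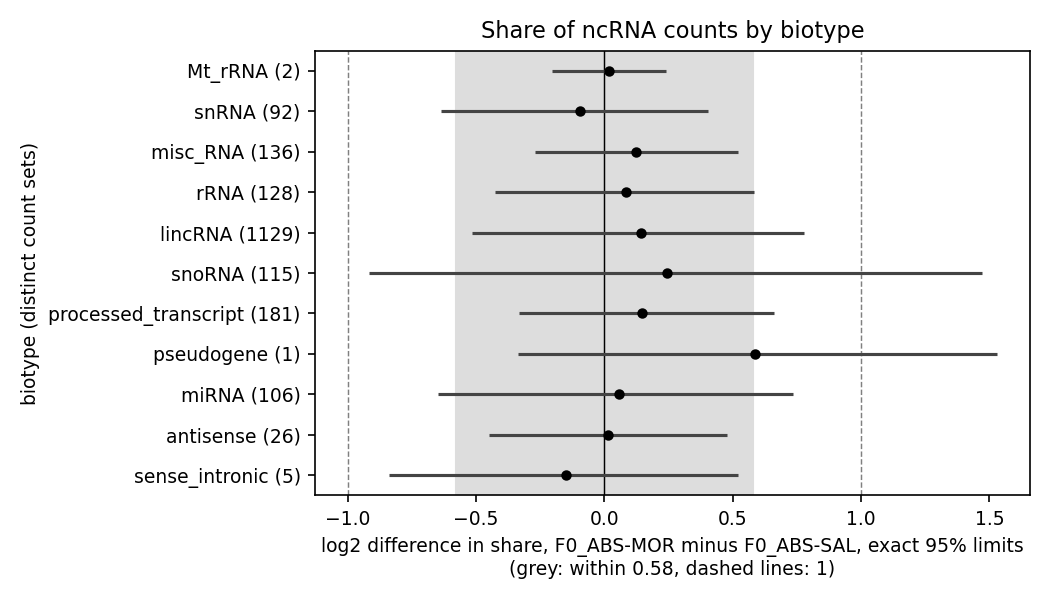
Log2 difference in the share of ncRNA counts, F0_ABS-MOR minus F0_ABS-SAL (x axis), with exact 95% limits for the 11 biotypes with at least 10 counts in every abstinent library, ordered by share; numbers in brackets are distinct count sets. The limits cover 0 in every biotype and pass a 2-fold change in snoRNA and pseudogene.

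Among the other biotypes the limits covered 0 as well. misc_RNA, which holds RNAs such as Y, 7SK and signal recognition particle RNA, was at 4.65% to 7.08% against 3.42% to 6.17%, a log2 difference of 0.12 (-0.27 to 0.52). Nuclear-encoded rRNA was at 3.22% to 7.41% against 3.71% to 6.48%, a difference of 0.08 (-0.43 to 0.58). Long intergenic RNAs held 0.219% to 0.618% against 0.248% to 0.517%, a difference of 0.14 (-0.51 to 0.78). These 3 biotypes overlapped over most of their ranges. Higher estimates were found for 46 of 70 tested misc_RNA sets, 43 of 74 rRNA sets and 62 of 126 lincRNA sets. The misc_RNA and rRNA sets include near copies of the same RNA and are not independent of each other.
snoRNA, which guides modification of rRNA, was the least certain of the larger biotypes. Its share varied from 0.108% to 0.364% in F0_ABS-MOR and from 0.0868% to 0.355% in F0_ABS-SAL, and the limits of its difference of 0.25 ran from -0.92 to 1.47. A fold between 0.529 and 2.77 was therefore compatible with these 11 libraries. The 1 pseudogene had the largest difference, 0.59 (-0.34 to 1.53, exact permutation p = 0.160). Processed transcripts (0.15, -0.33 to 0.66), antisense RNA (0.01, -0.45 to 0.48), miRNA hairpins annotated by Ensembl (0.06, -0.65 to 0.74) and sense-intronic RNA (-0.15, -0.84 to 0.52) were close to 0. Over the 11 biotypes the smallest adjusted p was 0.905.

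The precision for single ncRNAs differed by biotype. The limits lay inside 2-fold for 42 of 70 misc_RNA sets, 37 of 74 rRNA sets and 14 of 37 snRNA sets. They did for 5 of 13 snoRNA sets, 19 of 126 lincRNA sets and 4 of 64 processed transcript sets, which were mostly low. Many misc_RNA, rRNA and snRNA sets were near copies of each other. With sets within 10% in every library joined, these 3 biotypes held 51, 51 and 21 groups. With near-identical sets reduced to 1, 80 of 368 sets of all biotypes had limits inside 2-fold. The 3 narrowest sets were misc_RNA at 2104 to 2953 CPM, with half-widths from 0.39 to 0.40. Mitochondrial tRNA, ribozyme RNA, scaRNA, sRNA and retained introns had fewer than 10 counts in some abstinent library and were not tested.

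The change of the morphine difference between timepoints was tested as an interaction, abstinent minus nonabstinent, in the model of all 4 groups. With edgeR 0 of 317 miRNAs, 0 of 409 ncRNA sets and 0 of 255 families were called (0% each), with 10, 13 and 11 at an unadjusted p under 0.05. miR-24-1-5p, which had been named for its small abstinent p, had an interaction of 1.75 (edgeR adjusted p = 0.467). Its estimate in nonabstinent males was -0.68. The abstinent estimate for which it was named is part of this interaction, which is therefore not independent evidence of a change. Over the biotypes the smallest exact permutation p of the interaction was 0.162, for sense-intronic RNA, and that of mitochondrial rRNA was 0.253.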

How the data were processed

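Mature sperm smRNA libraries of 25 rats were sequenced. The authors trimmed forward reads, aligned them to Rnor_6.0 with sRNAbench and deposited unnormalized read counts per miRBase miRNA and per Ensembl ncRNA, with no count of 1, so 2 is the smallest count above 0. Reads that fit several copies can be counted at each, which gives identical ncRNA rows. The study used DESeq2. Here edgeR 4.0.16 (R 4.3.3) quasi-likelihood tests with TMM scaling, its filter on low counts and 1 model of the 4 groups gave fold changes, Wald standard errors, 95% limits and Benjamini-Hochberg adjusted p. Calls needed a log2 fold change beyond 0.58 and an adjusted p below 0.1. CPM are TMM-scaled, and log2 CPM used a prior count of 2. Biotype shares and single transcripts were compared by two-sided exact permutation over 462 arrangements, with limits by inversion. DESeq2 1.42.0, limma 3.58.1 (voom with quality weights), other scalings, filters and models, and each library left out were tried as alternatives; reducing ncRNA sets that were within 10% in every library to 1 was added after seeing the data. The edgeR fits were also run on simulated counts with known fold changes in many rows, a setting unlike the small differences found here. Named were the 10 miRNAs, 5 ncRNA sets and 5 families with the smallest p, the 10 most abundant miRNAs and 12 families, 3 miRNAs the study named and 1 snoRNA chosen by its nonabstinent p, every biotype with the leading set of the 8 that had at least 3 tested sets, and the narrowest and widest limits; ncRNA sets other than 4 are given without identifiers. The values of miR-200a-5p and miR-27a-3p were added afterwards. The members and lists were chosen with earlier results of these data known. The samples are labelled as biological replicates. Which library was prepared in which batch or medium is not given in the sources used here. Intervals for shares treat libraries as the unit.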

Additional observations from a re-analysis of the deposited data

Results flagged for a closer look

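In 156 groups of 5 or 6 libraries checked, 6 had a lowest or highest library that stood apart from the others by Dixon's criterion, where chance flags about 1 in 20 groups, or 7.8 here. Library L of F0_ABS-SAL was at a log2 CPM of 12.8 for the most abundant misc_RNA set, against 11.96 in the next library. The same library was the lowest saline library for the miR-21-5p family, at 14.7 against 15.1. Library E of F0_ABS-SAL was at 5.87 for an snRNA set with wide limits, against 2.36 in the next. The log2 share of mitochondrial rRNA (in percent) was lowest in library Q of F0_ABS-MOR, at 5.87 against 6.12, and in library R of F0_ABS-SAL, at 5.78 against 6.16. Library R also had the fewest ncRNA counts among saline libraries, with a log2 total of 21.3 against 21.8. The lowest mitochondrial rRNA share thus stood apart in 1 library of each group.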

How the results depend on the processing

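No paired analysis was possible because the columns carry letters and no replicate numbers. With edgeR, DESeq2 and limma-voom, and under each scaling, filter, model and left-out library tried, 0 miRNAs, ncRNA sets and families were called, and the interaction called 0 families and 0 biotypes where it was rerun. The cause of the changes below was not tested. Limits were wider at low levels, with a median half-width of 1.10 for miRNAs and 1.29 for ncRNA sets under 10 CPM.
The number of ncRNA sets with an unadjusted p under 0.05 was 1 in the main analysis. It was 6 of 2086 with DESeq2, run without the filter, and 2 with DESeq2 size factors in edgeR. It was 0 with at least 10 counts in every library, with the joint TMM factor and with total count alone. It was 11 with limma-voom, 5 with log2 total count as covariate and 4 with only the 2 abstinent groups. It was 2 with near-identical sets reduced to 1, and 256 of 2086 with no filter on low counts. For miRNAs, 4 in the main analysis, it was 17 with no filter and 0 with at least 10 counts, and for families, 3 in the main analysis, 14 and 0. The number of ncRNA sets with limits inside 0.58, 16 in the main analysis, was 10 with at least 10 counts, 39 with every row kept, 8 with near-identical sets reduced to 1, 25 with no filter and 1 with total count alone, and inside 2-fold, 123 in the main analysis, it was 80 with near-identical sets reduced and 57 with total count alone. Leaving out 1 library gave 2 (without Q) to 7 (without E) miRNAs, 0 (without Y) to 9 (without K) ncRNA sets and 1 (without S) to 7 (without E) families with an unadjusted p under 0.05, 79 (without K) to 105 ncRNA sets inside 2-fold, 7 to 21 ncRNA sets and 46 to 56 families inside 0.58, and 0 to 6 (without K) named transcripts with an exact permutation p under 0.05.
Of 50 single log2 fold changes followed, 21 kept their sign under every alternative, and 29 turned it in at least 1, all with a main size of at most 0.439. With limma-voom the log2 fold changes were -0.0421 for rno-miR-34c-5p, 0.0744 for rno-miR-148a-3p, -0.0011 for rno-miR-99a-5p, -0.0106 for rno-miR-30d-5p, -0.00200 for rno-miR-500-3p, -0.0777 for the miR-34c-5p family, 0.0044 for the let-7f-5p family, 0.0643 for the miR-148a-3p family and -0.0149 for the miR-34b-3p family. With total count alone they were 0.0106 for rno-miR-7a-5p, 0.0428 for rno-miR-148a-3p, 0.0116 for rno-miR-146b-5p, -0.0072 for rno-miR-31a-3p, 0.0107 for the miR-7a-5p family and 0.0387 for the miR-148a-3p family. With the joint TMM factor they were -0.0019 for rno-miR-34c-5p, -0.0322 for rno-let-7f-5p, -0.0032 for the miR-34c-5p family and -0.0026 for the miR-26a-5p family. rno-let-7f-5p was at -0.0114 with at least 10 counts, -0.0172 with no filter and -0.0559 with log2 total count as covariate, which put rno-miR-7a-5p at 0.00093. rno-miR-146b-5p was at 0.0021 with DESeq2 size factors in edgeR.
Leaving out 1 library at a time, the log2 fold change ran from -0.194 to 0.122 for rno-miR-7a-5p, -0.142 to 0.344 for rno-miR-148a-3p, -0.0700 to 0.0745 for rno-miR-146b-5p, -0.076 to 0.188 for rno-miR-34c-5p, -0.193 to 0.128 for rno-let-7g-5p, -0.424 to 0.759 for rno-miR-500-3p, -0.375 to 0.355 for rno-miR-31a-3p, -0.0662 to 0.11 for rno-let-7f-5p, -0.0298 to 0.152 for rno-miR-26a-5p, -0.0667 to 0.221 for rno-miR-547-3p, -0.119 to 0.0237 for rno-miR-21-5p, -0.588 to 0.193 for rno-miR-143-3p, -0.268 to 0.0275 for rno-miR-10a-5p, -0.0584 to 0.198 for rno-miR-34b-3p and -0.38 to 0.00312 for ENSRNOT00000083185.1. It ran from -0.163 to 0.159 for the miR-7a-5p family, -0.226 to 0.357 for the miR-148a-3p family, -0.0337 to 0.131 for the miR-34c-5p family, -0.18 to 0.0677 for the let-7f-5p family, -0.11 to 0.161 for the miR-26a-5p family, -0.115 to 0.0397 for the miR-30c-5p family, -0.00935 to 0.359 for the miR-99a-5p family, -0.687 to 0.257 for the miR-143-3p family, -0.0338 to 0.206 for the miR-34b-3p family, -0.333 to 0.0701 for the miR-10a-5p family, -0.258 to 0.0478 for the miR-10b-5p family and -0.133 to 0.0175 for the miR-21-5p family. The log2 difference in biotype shares ran from -0.0637 to 0.0728 for the Mt_rRNA share, -0.0748 to 0.17 for the antisense share, -0.00198 to 0.298 for the lincRNA share, -0.087 to 0.211 for the miRNA share, -0.0223 to 0.275 for the processed_transcript share, -0.0396 to 0.211 for the rRNA share, -0.313 to 0.0239 for the sense_intronic share, -0.204 to 0.0806 for the snRNA share and -0.0054 to 0.207 for the misc_RNA share. Without library R, rno-miR-143-3p was at 0.193 and its family at 0.257.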
